A study of Rattus norvegicus with 2 samples.

Results

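The genes described here belong to the pathway that carries the insulin signal from the cell surface of hepatocytes to the nucleus. They include the receptor (Insr), its adaptors (Irs1 and Irs2) and the subunits of phosphoinositide 3-kinase, PI3K (Pik3r1, Pik3ca and Pik3cb). The others are the Akt kinases (Akt1 and Akt2), the transcription factor Foxo1 and the phosphatase gene Ptpn1. Members were the array spots named exactly for one of these 10 genes, whatever their values. Of the 10 genes, 9 had a spot, and levels of Ptpn1 are not analysed here. They had 10 spots, 1 for each gene except Pik3ca, which had 2 different probes, out of 21766 library spots on each array, which carry 17157 gene names among the probes kept. The tissue was liver of adult male Wistar rats, all of them made diabetic by a single injection of streptozotocin, at 65 mg/kg, after a 12 h fast. Diabetes was taken as a glycaemia above 200 mg/dl at 72 h. The γ-conglutin pool joined liver RNA of 5 such rats given γ-conglutin, a protein of lupin seeds, at 120 mg/kg in 0.9% NaCl for 7 days. The vehicle pool joined liver RNA of 5 such rats given the NaCl solution alone. No rats without diabetes were hybridised. Both pools were set against each other on 2 arrays with the dyes exchanged: the γ-conglutin pool carried Alexa647 on array 1 and Alexa555 on array 2.

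Insulin binds its receptor, a tyrosine kinase, which phosphorylates the Irs adaptors. These recruit PI3K, whose lipid product brings Akt to the membrane, and active Akt phosphorylates Foxo1, which then leaves the nucleus. In liver this restrains the genes of glucose output and permits lipid synthesis. Streptozotocin kills pancreatic beta cells, the source of insulin. Foxo1 also acts back on the pathway: the insulin receptor gene is a known Foxo target in flies and in mouse muscle cells. The core of the Foxo binding site, TGTTTAC, was therefore looked for on both strands in the 250 bases before the gene start of the members in RefSeq's rat promoters (build GRCr8). Irs2 and Pik3cb had no entry in that table of promoters and were not searched. Of 8 members with a promoter in that table, Ptpn1 included, 2 held the core, as did 3.21% of the 33469 promoters of the table. Both stretches are given 5′ to 3′ on the gene's strand, with the core in capitals, from chr12:6128880-6128920 (minus strand) for Insr and chr2:117147125-117147165 (plus strand) for Pik3ca. The core begins 100 bases before the gene start of Insr and 157 bases before that of Pik3ca.
Insr: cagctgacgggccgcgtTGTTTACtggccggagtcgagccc
Pik3ca: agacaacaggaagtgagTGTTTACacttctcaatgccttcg
A match of letters does not show binding, and neither array bears on it.

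Each treatment was 1 pool, and the 2 arrays are technical repeats of that pair of pools, so nothing below measures the spread between rats, and p-values are left out. Precision is limited by there being only 2 arrays. In bulk liver RNA, fewer cells of a type and less RNA per cell cannot be told apart. Median raw intensities of library spots were 1287 and 1641 for the γ-conglutin pool and 1683 and 1179 for the vehicle pool on arrays 1 and 2, so the pool in Alexa555 was the brighter on each array. All 12 hepatocyte marker genes measured (of 14 listed) were above the 95th percentile of empty spots in both pools on both arrays. That level separates tissues poorly, since all 6 measured pancreas markers (of 9) and all 4 measured skeletal muscle markers (of 6) passed it too. Their part in the results was not tested. Pearson's r between the log2 ratios of the arrays, both taken as γ-conglutin over vehicle, was -0.44 across 21702 probes, which are not independent replicates. The ratios rest on the dyes as labelled, and a dye difference and an array with exchanged labels cannot be told apart from these values. With the labels of array 2 exchanged, 0 members passed the size rule given below in either direction, against 0.0875% of all probes higher and 0.0783% lower. The members' mean log2 ratios then ran from -0.25 for Irs1 to 0.31 for Pik3r1, and exchanging array 1 instead turns every sign. This setting was chosen after seeing the data.

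None of the 9 members with a spot differed between the pools by the size rule, at least 1.5-fold on both arrays with 1 direction. The count was 0 higher and 0 lower with γ-conglutin, as it was for all 21702 probes (0% and 0%). At a smaller size, a log2 ratio of 0.32 on both arrays, the members again gave 0 and 0, against 0.00461% of all probes higher and 0.304% lower. No member reached 1.5-fold even on 1 array, which 0.977% of all probes did on array 1 and 3.01% on array 2. Mean log2 ratios of the members ran from -0.27 to 0.13, with 5 above 0 and 4 below. Their median was 0.02, beside 0.01 over all probes. For a gene with several probes the brightest stands for it in such counts.

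Signal over background, raw minus local background intensity in scanner units, passed the 95th percentile of empty spots in both pools on both arrays for 9 of the 10 member probes, all but that of Foxo1. Of all probes 94.3% did. On array 1, 9 of 10 probes had less signal in the γ-conglutin pool than in the vehicle pool, and on array 2, 9 of 10 had more. In each of these the pool in Alexa555 was the brighter, as it was in the medians over library spots given above. The share of all probes is not given here. The log2 ratios given below were taken after loess levelled the dyes across intensities.

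**Figure D1:**
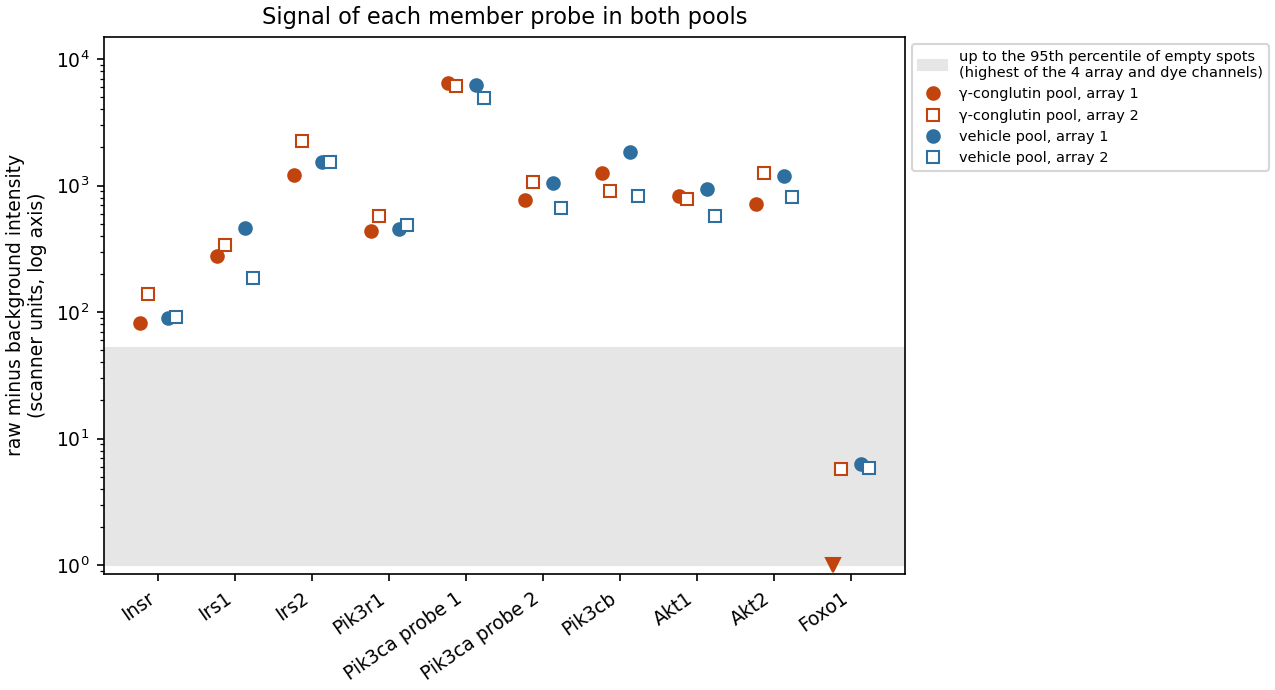
Raw minus background intensity (scanner units, log axis) of the 10 member probes in the γ-conglutin pool (orange) and the vehicle pool (blue) on array 1 (filled) and array 2 (open); the triangle marks 0.165, below the axis, and heights of different probes are not comparable. Foxo1 alone lies in the grey band of empty spots, and for most other probes the higher value of each pair is the one in Alexa555.

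At the cell surface, Insr gave a dim signal, 82.6 and 138 units in the γ-conglutin pool on arrays 1 and 2 and 89.0 and 91.1 units in the vehicle pool. The raw ranges of the pools overlapped. Each pool changed dye between the arrays, so overlap of raw ranges, here and below, does not compare the pools. After normalization its log2 ratio was 0.22 on array 1 and -0.02 on array 2, a mean of 0.10 ± 0.17 (SD over the 2 arrays, here and below). Irs1, an adaptor that the receptor phosphorylates, had 276 and 342 units with γ-conglutin and 462 and 187 units with vehicle. Its log2 ratios were opposed and of like size, -0.26 and 0.24, with a mean of -0.01 ± 0.35. The wider raw range was that of the vehicle pool, which enclosed both values of the γ-conglutin pool.

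Irs2, the adaptor whose transcript Foxo1 is known to raise in liver when insulin is low, had 1213 and 2251 units with γ-conglutin and 1526 and 1547 units with vehicle. It was the only member with a positive log2 ratio on both arrays, 0.07 and 0.04, with a mean of 0.05 ± 0.02. Of all probes, 16.6% were positive on both. With the probes of a gene averaged instead of the brightest taken, Pik3ca was positive on both arrays too. The Irs2 spot was uneven: the SD of its pixels was 39.4% of the spot's intensity in the γ-conglutin pool and 42.5% in the vehicle pool on array 1. The median over library spots was 10.4% and 10.9%. Spots of other members were uneven too. Irs1 had 24.0% and 31.6% in the γ-conglutin pool and 20.8% and 28.3% in the vehicle pool on arrays 1 and 2. Pik3r1 had 21.2% and 23.1% in the 2 pools on array 1, and Akt2 21.9% and 18.4% on array 2. Insr and Akt1 were more even than the median spot in every channel. The mean ratio of Irs2, 0.05, corresponds to a fold of 1.04.

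Among the PI3K genes, the regulatory subunit gene Pik3r1, whose product p85α docks on phosphorylated Irs proteins, had 434 and 571 units with γ-conglutin and 456 and 487 units with vehicle. Its 2 ratios were the most opposed of the members, 0.33 on array 1 and -0.29 on array 2, and its mean was 0.02 ± 0.44. Pik3ca, which encodes the catalytic subunit p110α, was measured by 2 probes. The brighter, named for the reference mRNA, had 6506 and 6131 units with γ-conglutin and 6187 and 4909.9 units with vehicle, and log2 ratios of 0.32 and -0.05 (0.13 ± 0.26). This was the highest mean of the members. The dimmer, named for a brain cDNA clone, had 766 and 1070.3 units with γ-conglutin and 1054 and 669 units with vehicle, and log2 ratios of -0.04 and 0.14 (0.05 ± 0.13). The probes of Pik3ca thus had opposite signs on each array and positive means.

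Pik3cb, which encodes the catalytic subunit p110β, had the lowest mean of the members, -0.27 ± 0.17. Its signal was 1266 and 901 units with γ-conglutin and 1849 and 829.6 units with vehicle. Both log2 ratios were negative, -0.15 on array 1 and -0.39 on array 2, as for 16.1% of all probes. The mean corresponds to a fold of 0.832, and 95.1% of all probes had a mean nearer to 0. On array 2, which holds the lower ratio, the pixel SD of the spot was 45.9% of its intensity in the γ-conglutin pool and 43.7% in the vehicle pool. On array 1 the same spot was even, with 9.21% in the γ-conglutin pool and 8.01% in the vehicle pool. More than 96% of library spots were more even than the Pik3cb spot of array 2 (96.8% in the γ-conglutin channel and 97.3% in the vehicle channel). The part of this unevenness in the ratio was not tested. Without array 2 the ratio of Pik3cb was -0.15, and without array 1 it was -0.39.

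The Akt genes encode the serine/threonine kinases downstream of PI3K, and Akt2 is the form best known for insulin action on liver metabolism. Akt1 had 828 and 787 units with γ-conglutin and 935 and 578 units with vehicle. Its log2 ratios were 0.23 and -0.09 (0.07 ± 0.22). Akt2 had 721 and 1257 units with γ-conglutin and 1197 and 805 units with vehicle. Its log2 ratios ran the other way on both arrays, -0.30 and 0.11 (-0.09 ± 0.29). In both genes the sign of the ratio turned between the arrays.

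Foxo1, the transcription factor that Akt keeps out of the nucleus, was at the level of spots with no probe. Its signal over background was 0.165 and 5.79 units in the γ-conglutin pool and 6.27 and 5.89 units in the vehicle pool. The 95th percentile of empty spots was 30.1 and 52.2 units in the γ-conglutin channels and 42.5 and 36.0 units in the vehicle channels. In the γ-conglutin pool only the spot of array 2 exceeded its background by 2 SD. Of empty spots, 49.2% and 77.5% did so in the γ-conglutin channels of arrays 1 and 2. The log2 ratios of -0.06 and -0.16 (-0.11 ± 0.07) therefore carry no measured difference. The size follows the treatment of background. The authors' deposited table of ratios, turned to γ-conglutin over vehicle, gives -4.28 and -0.90 on the log2 scale. Plain subtraction of background gave a mean of -2.71.

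**Figure D2:**
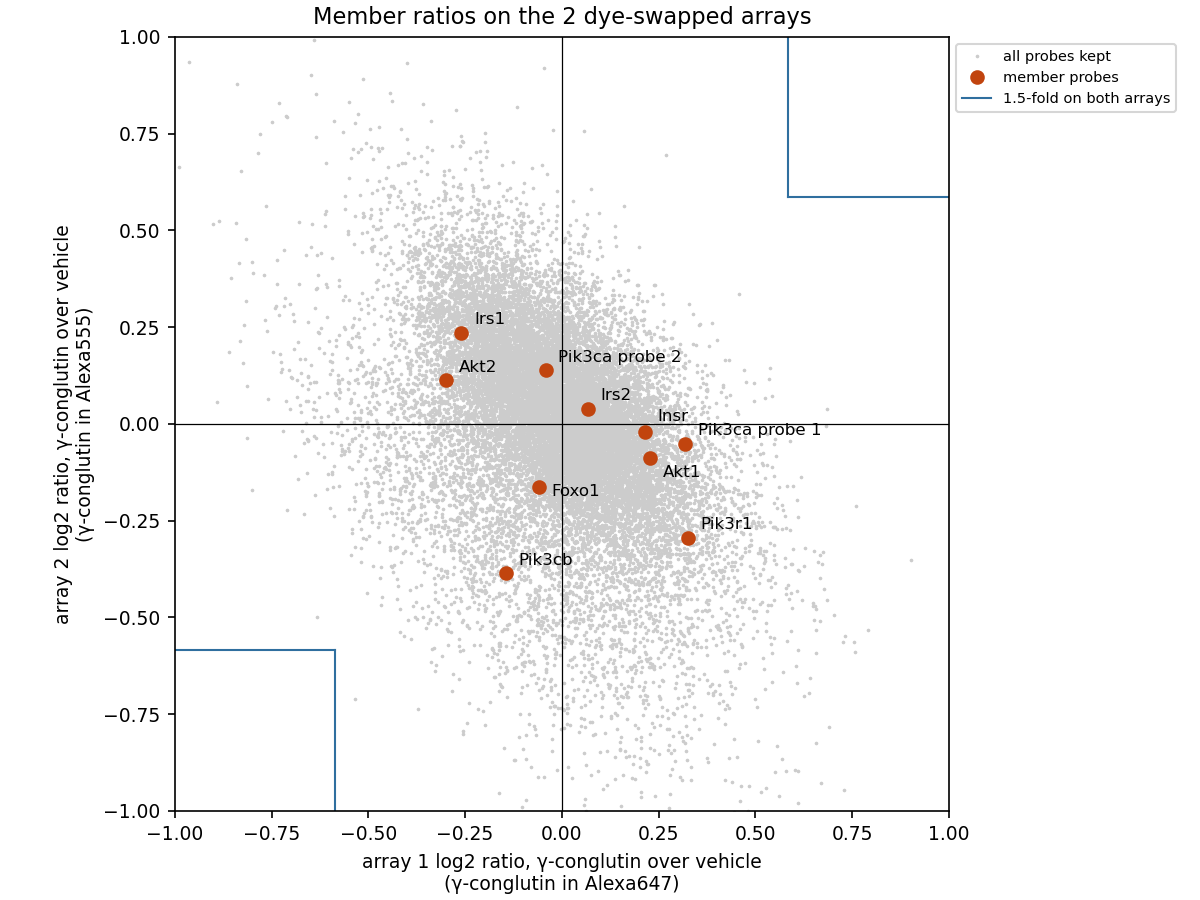
Log2 ratio, γ-conglutin over vehicle, on array 1 (horizontal) and array 2 (vertical) for all probes kept (grey; 43 beyond the axes are not drawn) and the 10 member probes (orange); the blue corners bound 1.5-fold on both arrays. The cloud falls from upper left to lower right (r = -0.44), and the corners hold no probe, member or other. Of the members, Pik3cb and Foxo1 alone have negative ratios on both arrays.

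With the dyes as labelled, the mean of both ratios estimates the difference between the pools. What remains on array 1 after that mean is taken off is called the dye part here, since its sign follows Alexa647 over Alexa555. It also takes in the noise of spots and their position on the array, which were not separated from it, and with the labels of array 2 exchanged it would be the pool mean. By this definition the dye part is larger than the pool mean exactly where the arrays differ in sign, so its count restates the signs. It was larger for 6 of the 9 members, and for 67.3% of all probes. The share of the members is near that of the array. It was largest for Pik3r1, 0.31 against a pool mean of 0.02, and for Irs1, -0.25 against -0.01. It was smaller than the pool mean for Irs2 (0.01), Pik3cb (0.12) and Foxo1 (0.05). The median size was 0.16 for the dye part and 0.09 for the pool mean over the members, and 0.12 and 0.06 over all probes.

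The array was printed in 48 blocks, and the median log2 ratio of a block ran from -0.22 to 0.19 on array 1 and from -0.16 to 0.15 on array 2. Insr and the brighter Pik3ca probe lay in the same block, 48, whose median over 460 probes was 0.19 on array 1 and -0.06 on array 2. Both probes had its sign, at 0.22 and 0.32 on array 1 and -0.02 and -0.05 on array 2. Irs1 in block 4 and Akt2 in block 7 lay where the medians were the reverse, -0.20 and -0.18 on array 1 and 0.13 and 0.12 on array 2. On array 1 all 10 member probes had the sign of their block's median, as did 74.2% of all probes. On array 2, 7 of 10 did, as did 63.7% of all probes, the exceptions being Irs2, Pik3cb and Foxo1.

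**Figure D3:**
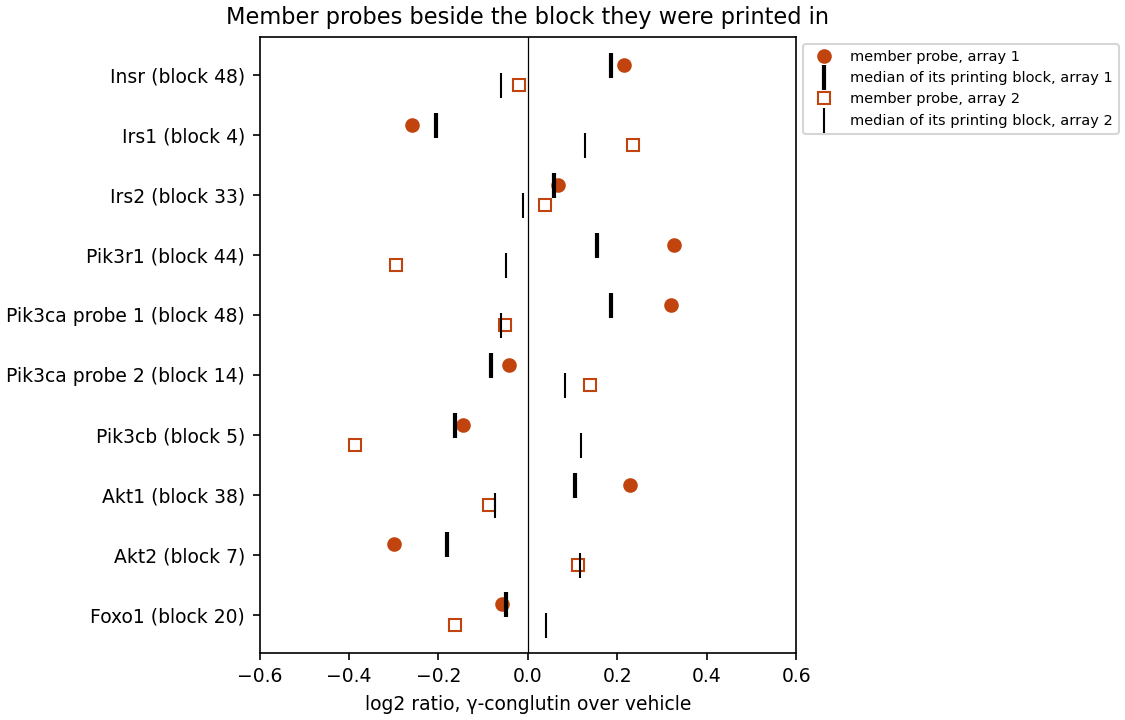
Log2 ratio, γ-conglutin over vehicle, for each member probe on array 1 (filled circles) and array 2 (open squares), with the median of all probes in its printing block on array 1 (thick bars) and array 2 (thin bars). Most probes lie near their block's median, and Pik3cb on array 2, at -0.39 against 0.12, is farthest from it.

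Loess fitted within each block instead of over the whole array changed which members had 1 sign on both arrays. Pik3cb then had 0.03 on array 1 and -0.50 on array 2, and Irs2 had -0.02 and 0.07, so neither kept its sign. The probes of Pik3ca came to 0.06 and 0.04 for the brighter and 0.03 and 0.08 for the dimmer, now of like sign and size. Akt1 had 0.10 and 0.04, Insr 0.11 and 0.00086, and Akt2 -0.11 and -0.01. The authors' deposited net intensities, centred on the median of each array, also gave Akt1 and Pik3ca as positive and Akt2 as negative on both arrays, with means of 0.06, 0.07 and -0.07. Without that centring, in the authors' deposited table, Akt2 had -0.12 on array 1 and 0.0054 on array 2, so its sign there turned with the centring. None of these genes passed the size rule, and Pik3cb lay near 1.5-fold on array 2 alone, at -0.50.

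Over the 8 settings that give each probe values of its own (other backgrounds, normalizations and inputs), no member had the same sign on both arrays in every one. Pik3cb did in 5 settings, Irs2 in 4, Pik3ca in 3, Akt1 and Akt2 in 2 each, Insr in 1, and Irs1 and Pik3r1 in 0. Foxo1 did in 7. The mean was above 0 in all 8 settings for Insr (0.06 to 0.18), Irs2 (0.02 to 0.10), Pik3ca (0.05 to 0.19) and Akt1 (0.06 to 0.12). It was below 0 in all 8 for Pik3cb (-0.28 to -0.21), Akt2 (-0.10 to -0.04) and Foxo1 (-2.71 to -0.07). Irs1 and Pik3r1 took both signs, between -0.02 and 0.04 for Irs1 and between -0.04 and 0.07 for Pik3r1. The settings share the same 2 arrays, so a mean that keeps its sign over them is no repeat of the experiment. The share of all probes that keep a sign over the settings is not given here. These counts therefore do not set the members apart from the array. Pearson's r between the arrays over all probes ran from -0.68 to -0.26 across these settings.

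**Figure D4:**
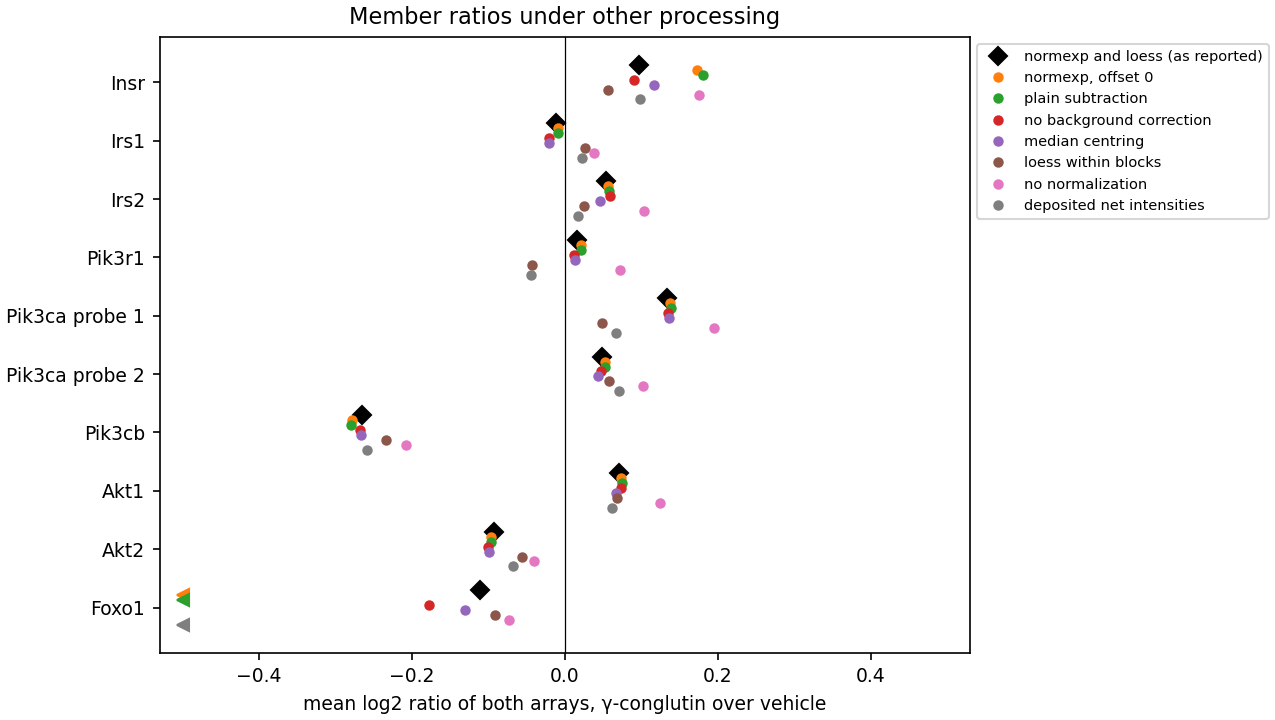
Mean log2 ratio of both arrays, γ-conglutin over vehicle, of each member probe as reported (black diamonds) and under 7 other background corrections, normalizations or inputs (coloured points); triangles mark means below the axis. Pik3cb stays between -0.28 and -0.21, while Foxo1 reaches -2.71 with plain subtraction.

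Around the members, 91 further symbols of the pathway were listed by role, older names included, and 73 were measured. None passed 1.5-fold on both arrays in either direction, as for all probes (0% and 0%). None passed a log2 ratio of 0.32, against 0.00461% of all probes higher and 0.304% lower. The list median was 0.02, beside 0.01 over all probes. Means were above 0 for 43 genes and below 0 for 30, and for 11500 and 10202 of all 21702 probes. On both arrays 10 genes were positive and 13 negative, and in the other 50 the arrays differed in sign. Of all probes, 16.6% were positive on both, 16.1% were negative on both and 67.3% differed in sign. These counts therefore do not set the list apart from the array. Among ligands and related receptors (5 of 7 measured, median 0.12), the insulin gene Ins1 had the highest mean, 0.19 ± 0.99, from -0.51 and 0.89. Igf1, a liver hormone that signals through a related receptor, had the lowest, -0.19 ± 0.21. Among adaptors (12 of 12, median 0.03), Irs3 had 0.22 ± 0.52 and Sh2b1, which binds activated receptors, -0.21 ± 0.09.

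Of the other PI3K subunits (5 of 9, median -0.02), Pik3cd, the p110δ gene of white blood cells, had -0.24 and -0.22 (-0.23 ± 0.01) and the regulatory subunit gene Pik3r2 0.07 ± 0.31. Among kinases around Akt (9 of 14, median 0.03), Sgk1, a kinase related to Akt, had the lowest mean of the whole list, -0.33 ± 0.47, from -0.66 on array 1 and 0.00077 on array 2. The atypical protein kinase C gene Prkci had the highest of that group, 0.19 ± 1.37, from -0.78 and 1.16. Among the brakes (14 of 17, median -0.02), the lipid phosphatase gene Inpp5d, best known in blood cells, had the highest mean of the list, 0.28 and 0.22 (0.25 ± 0.04).

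Downstream, substrates of Akt (14 of 18, median 0.03) ranged from the glycogen synthase kinase gene Gsk3b at -0.25 ± 0.24 to Akt1s1, a partner of the mTOR complex, at 0.18 ± 0.51. A dimmer probe of Gsk3b had 0.09 and -0.18 (-0.05 ± 0.19). Transcripts known as Foxo1 targets (14 of 14, median 0.01) ranged from Mttp, which loads lipid on lipoproteins, at -0.26 ± 0.09 (-0.19 and -0.33) to Sesn1 at 0.15 ± 0.04. The glucose output genes G6pc (-0.17 and 0.05) and Pck1 (0.22 and -0.16) are among them, and in both the sign turned between the arrays. These 2 were named outside the rule of highest and lowest mean, after their values were seen. Of the 14 targets, 2 were positive on both arrays, 2 were negative on both and 10 had opposite signs. The shares of all probes were 16.6%, 16.1% and 67.3%, so these counts do not set the targets apart from the array.

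**Figure D5:**
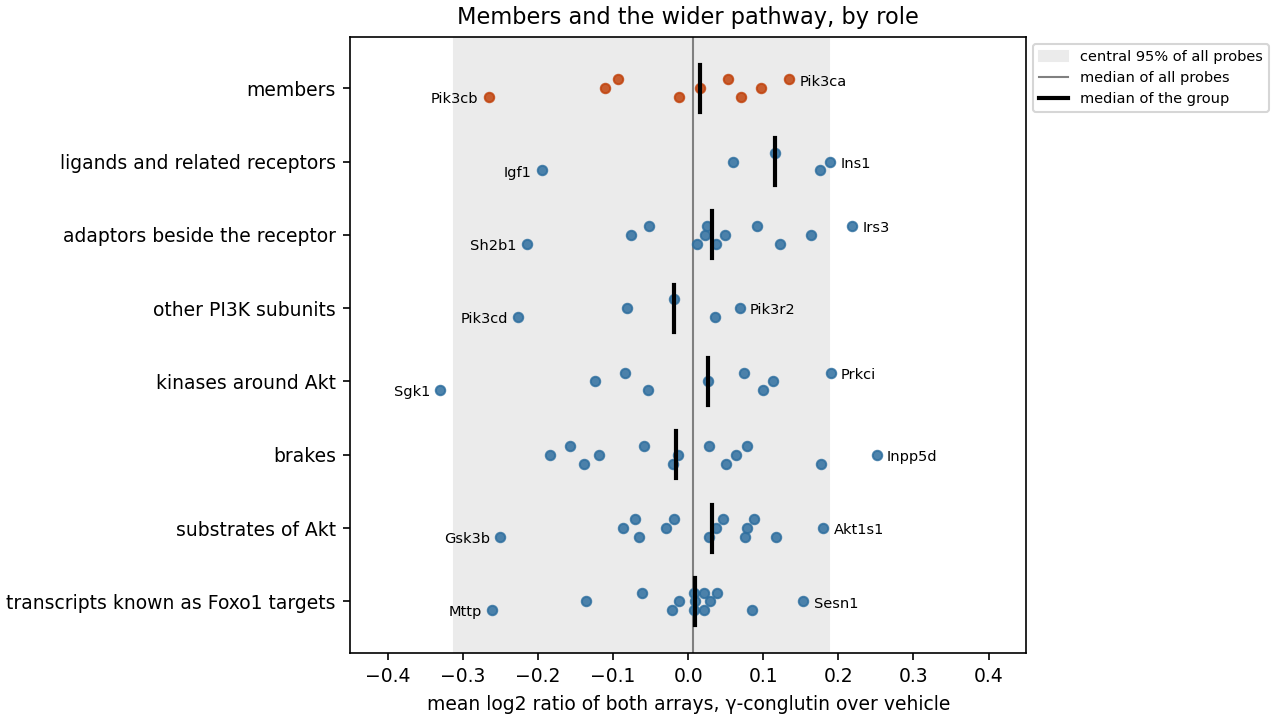
Mean log2 ratio of both arrays, γ-conglutin over vehicle, for the 9 members (orange) and 72 of the 73 pathway genes (blue) by role, 1 point a gene, with the median of all measured genes of the group (black bar) and the central 95% of all probes (grey, -0.31 to 0.19). Members lie between Pik3cb at -0.27 and Pik3ca at 0.13, inside the grey range.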

How the data were processed

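Liver RNA of the γ-conglutin and vehicle pools was measured on 2 two-colour arrays with mouse gene names; the match of mouse probes to rat transcripts was not checked here. Per the file headers, the authors deposited for each spot the mean raw and background intensity with their SDs, a net intensity per dye and the ratio of net intensities. No source used here names the software behind them. The deposited value table holds log2 of that ratio, Alexa555 over Alexa647: all values matched within 0.001, with column medians of -0.00084 and 0.019.

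Raw intensities were corrected by normexp (offset 50) and normalized by global loess, control spots at weight 0, in limma 3.58.1 under R 4.3.3. Every ratio was turned so that γ-conglutin stood over vehicle. Repeat spots of a probe were averaged. A probe was kept where, on each array, 1 channel or more exceeded background by 2 SD (21702 of 21761). By channel, 49.2% to 77.5% of empty spots exceeded it too, so a kept probe need not be a detected transcript. The SD covers 2 technical arrays. No test over rats was possible, and 1.5-fold on each array was the size rule.

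Members and lists were chosen with earlier results of these data known. Named pathway genes are the highest and lowest mean of each role; 1 of them is not reported here. The steps were tested on simulated folds larger than the members' ratios as reported, alike on both arrays and in spots well above background. That test does not cover ratios of the members' size or spots as dim as those of Insr and Foxo1. Summaries used Python 3.11.15, pandas 2.3.3 and matplotlib 3.10.9. Alternatives covered background, normalization, input, filter, probe choice, size rule, each array alone and, added after seeing the data, exchanged labels on array 2.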

Additional observations from a re-analysis of the deposited data

How the results depend on the processing

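The number of members past the size rule was 0 higher and 0 lower as reported and in each alternative except 3. Plain background subtraction, normexp with an offset of 0 and the deposited net intensities each gave 1 member lower, Foxo1, with means of -2.71, -1.02 and -2.60, from a spot at the level of empty ones. Of all probes, 0.111%, 0.0461% and 0.0968% were lower there. With no background correction, median centring, loess within blocks, either stricter filter, no filter or the 2-fold rule, 0% of all probes passed in either direction. A count of 0 in those settings, for the members or the pathway list, says nothing particular of these genes. The filters on background in every channel and on empty spots removed Foxo1 and left 8 members with a median of 0.03. The median of the members, 0.02, ran from -0.05 on array 2 alone to 0.07 on array 1 alone and with no normalization. For the wider pathway list, array 1 alone gave 0 genes higher and 2 lower (0.295% and 0.682% of all probes), and array 2 alone gave 4 higher and 1 lower (0.622% and 2.39%). The pathway list median ratio was -0.074 on array 1 alone and 0.056 on array 2 alone. With the labels of array 2 exchanged, a setting chosen after seeing the data, the median of the members was 0.12, that of the pathway list -0.079, and 1 pathway gene was lower. Both arrays gave 0 and 0 for the pathway list in the other settings. Of 63 member ratios recomputed with another background, normalization or input, 57 moved by less than the SD over the arrays and 6 by more, those of Foxo1 and Irs2. On 1 array alone all 18 ratios lie within the SD of the same 2 arrays by construction, which shows nothing. A median over genes is not bound in this way. That of the members moved by less than its SD, 0.08, on either array alone. The pathway list median moved by more than its SD, 0.09, on array 1 alone. The cause of the changes was not tested. No paired analysis was possible because the design has 1 pool a treatment, and both pools share every array. Signal over background limits Foxo1 and, less so, Insr.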

Other observations

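Of the members and listed pathway genes, 10 had more than 1 probe, and in 4 of them the probes had means of opposite sign. The p110δ gene Pik3cd had -0.23 ± 0.01 from its brighter probe and 0.07 ± 0.07 from the other. Grb10, an adaptor that restrains the insulin receptor, had 0.16 ± 0.72 and -0.12 ± 0.35. The 3 probes of Igf1r, the receptor of insulin-like growth factor, had means from -0.04 to 0.12, and the 3 of Foxo3, a relative of Foxo1, from -0.07 to 0.03. The probes of Prkci had like means, 0.19 and 0.22, from unlike arrays: -0.78 and 1.16 for the brighter, and 0.09 and 0.35 for the other. These genes were named after their values were seen, beyond those the rule names.

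The spot named for the insulin gene Ins1 gave 27543 and 38001 intensity units over background in the γ-conglutin liver pool and 35011 and 21930 in the vehicle liver pool on arrays 1 and 2, far above empty spots, although insulin is made in pancreatic beta cells. The array with the higher value was the one with Alexa555 in each pool.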
